A study of Caenorhabditis elegans with 2 samples.

Results

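The DNA damage response and repair genes described here are 32 protein-coding genes of Caenorhabditis elegans, listed by name, out of 19985 protein-coding genes annotated. They were examined for binding of LIN-35, the worm relative of the retinoblastoma protein, in chromatin immunoprecipitation and sequencing (ChIP-seq). All 32 names matched a gene. The data came from 2 biological replicates of a single group and include no second condition. The animals were mixed-sex young adults, taken whole, of strain YL468. This strain carries the allele unc-119(ed3)III and the transgene vrIs93, in which pMEX-5 drives LIN-35 fused to GFP and FLAG, followed by the LIN-35 3′UTR, together with unc-119 (+). The promoter of mex-5 is used in the germ line, and whole worms hold soma as well, so in a peak list the tissue of origin cannot be told apart. The labels give lin-35 as the antibody target and eGFP-lin-35 as the protein mapped, which leaves the epitope unsettled. The files hold peaks and no reads, so the sequencing depth is unknown.

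Repair genes keep broken, mispaired or crosslinked DNA from being passed on. Checkpoint kinases sense the damage and stop the cell cycle, nucleases trim broken ends, and the ends are then copied from the sister or homologous chromosome with the recombinase RAD-51 or joined directly. In the worm germ line the same proteins also mend the breaks made on purpose in meiosis. Pocket proteins such as LIN-35 do not touch DNA themselves. They are brought to it by E2F and DP proteins and by LIN-54, which with LIN-35 form the DREAM complex, and this complex is known for repressing genes of the cell cycle, repair genes among them in several animals.

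For each gene the best promoter peak was the one with the highest signal among the 30000 pooled peaks (build ce11) with a summit in the promoter window, 1000 bp before a transcript start to 300 bp after it. Signal values are those deposited by the authors, on a scale that is not stated, and serve only for description and ranking inside 1 list. The thresholded list of the authors, made from both replicates, held 550 peaks, which were the 550 highest of the pooled list. Only 3 of the 32 repair genes (9.38%, 95% exact interval 1.98 to 25.02) had a thresholded summit: brc-1, mrt-2 and lig-4. Among all protein-coding genes the share was 2.77%. With the 1000 highest pooled peaks rad-51 joined them, which made 4 of 32 (12.5%, interval 3.51 to 28.99) against 4.51%. With the 3000 highest there were 11 of 32 (34.4%, interval 18.6 to 53.2) against 9.56%. The wider lists added atm-1, chk-1, msh-6, mus-81, polq-1, rmh-1 and xpf-1. A pooled promoter summit of any rank was present at 29 of 32 (90.6%, interval 75.0 to 98.02) against 42.9%. The deposited text notes call the pooled and replicate lists peaks and background. The genes without one were exo-1, gen-1 and clk-2. The intervals cover the counting of genes only, and no test was run because the list was chosen with earlier results of these data known.

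**Figure D1:**
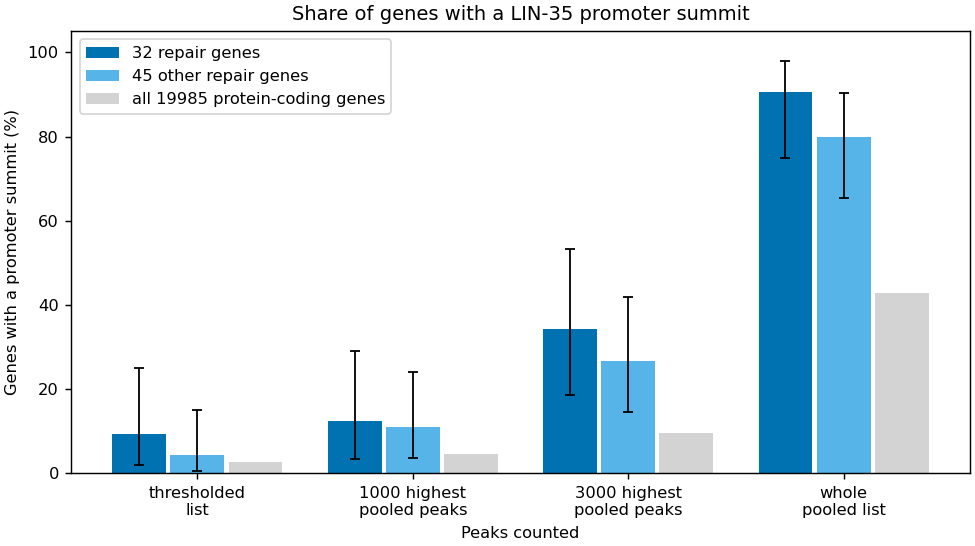
Percent of genes (vertical axis) with a promoter summit in 4 sets of peaks (horizontal axis), for the 32 repair genes, 45 other repair genes and all protein-coding genes; bars are shares and whiskers are 95% exact intervals. The 32 repair genes stand at 9.38%, 12.5%, 34.4% and 90.6% from left to right, and all genes at 2.77%, 4.51%, 9.56% and 42.9%.

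The strongest repair gene peak was that of brc-1, the worm BRCA1, a ubiquitin ligase that works with BRD-1 in recombination (WBGene00000264; peak III:3862945-3863300). Pooled, the signal was 32.5, and the replicates gave 19.4 (replicate 1) and 12.5 (replicate 2). These values ranked 328 of 30000, 471 of 30000 and 286 of 18226, so the peak stood high in each list. The summit was intergenic, 155 bp upstream of the nearest brc-1 start, and lay in no other protein-coding gene's window. The nearest other thresholded summit was 4439 bp away. It was the peak of rpl-3, a ribosomal protein gene, with a pooled signal of 402 and rank 2.

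The peak of mrt-2, the worm RAD1, a subunit of the sliding clamp that loads at damaged DNA to activate the checkpoint, had a pooled signal of 30.7 (WBGene00003417; III:11746628-11746983). Replicate 1 gave 25.7 and replicate 2 gave 11.4, at ranks 282 and 366, against 360 in the pooled list. It too was high in both replicates. Its summit fell in the mrt-2 5′ UTR, 40 bp downstream of a start, and belonged to mrt-2 alone. A second, lower pooled summit overlapped it, with a signal of 10.7 and rank 3963.

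The third thresholded gene was lig-4, which encodes DNA ligase IV of end joining (WBGene00002986; III:7520687-7521042). Its pooled signal was 25.9 (rank 501) and its signal in replicate 1 was 26.4 (rank 268), but the replicate 2 list, whose lowest signal is 2.00, held no overlapping peak. Of the replicate lists, only that of replicate 1 thus held the peak. The summit was 598 bp upstream of lig-4 but 20 bp upstream of cux-7 on the other strand and 144 bp upstream of C07H6.2 on the same strand, so it cannot be given to lig-4 over its neighbours. The lowest thresholded signal was 24.8. Just inside that limit stood lig-4 at 25.9, and the first repair gene outside it was rad-51 at 20.1.

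The sequences printed here were chosen because they hold a CHR-like string within 100 bp of a summit, and those of brc-1 and rad-51 do not reach the summit itself. LIN-54 recognises a short element called CHR, searched here on both strands as the strings TTTGAA and TTCGAA. Each line gives 30 bases of WBcel235 from the RefSeq assembly, 5′ to 3′ on the strand of the repair gene, with the string in capitals. TTTGAA on the opposite strand reads TTCAAA, and TTCGAA reads the same on both.
mrt-2 (III:11746777-11746806, 14 bp upstream of the summit): gcttctctcgctTTCGAAagaaaaatcttt
lig-4 (III:7520861-7520890, 10 bp downstream of the summit): gccatgcagtctTTTGAAgtccactcggac
brc-1 (III:3863027-3863056, 82 bp downstream of the summit): cagcgcgggagtTTTGAAatcaaatatttt
rad-51 (IV:10284612-10284641, 76 bp downstream of the summit): ggaaaaaaaaatTTCAAAtggcgctacttt
chk-1 (V:3759671-3759700, 8 bp upstream of the summit): gcgcgcggtaaaTTCGAAtgcggcaacgtt
The strings of mrt-2, lig-4 and chk-1 lay nearest to their summits. Such a string is common: of the 29 repair genes with a pooled summit, 21 (72.4%) had one within 100 bp, against 57.7% of the 8580 genes with a pooled promoter summit. Within 50 bp it was 8 of 29 (27.6%) against 35.2%, so over these 29 genes no steady difference from all genes was seen. For the 11 genes among the 3000 highest it was 9 of 11 (81.8%) against 58.7% of all genes at that depth within 100 bp, and 5 of 11 (45.5%) against 35.9% within 50 bp.

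Among recombination genes outside the thresholded list, rad-51, the strand-exchange recombinase, ranked highest (WBGene00004297; IV:10284524-10284879). Its pooled signal was 20.1 (rank 865), with 12.4 in replicate 1 (rank 1433) and 6.44 in replicate 2 (rank 1782). The summit was intergenic, 458 bp upstream of a start, and a second summit of signal 12.6 and rank 2583 lay 658 bp upstream. No other protein-coding gene had the best peak in its window. The remaining recombination genes were lower. For rfs-1, a RAD-51 paralogue, the pooled rank was 7644. The rank was 6030 for rad-54.L, a remodeller that assists RAD-51, and 12351 for brc-2, the worm BRCA2. The helicase gene helq-1 stood at 12884. The partner of brc-1, brd-1 (the worm BARD1), was at 16808 with a signal of 5.85, against 32.5 for brc-1, although both proteins act in a single complex.

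Among checkpoint genes, the kinase genes atm-1, the worm ATM, and chk-1, the kinase that acts below ATL-1, had nearly equal pooled signals but differed in which replicate ranked them high. The peak of atm-1 (WBGene00000227; I:182827-183182) had a pooled signal of 15.1 at rank 1656, with 4.96 in replicate 1 (rank 14589) and 10.045 in replicate 2 (rank 526). That of chk-1 (WBGene00000498; V:3759500-3759855) also had a pooled signal of 15.1, at rank 1658, with 16.2 in replicate 1 (rank 739) and no overlapping peak in replicate 2. The atm-1 summit was 359 bp upstream of its start and 233 bp upstream of F56C11.3 on the other strand, while the chk-1 summit, 209 bp upstream, was not shared. The clamp gene mrt-2, described above, ranked higher than both kinases, and the remaining checkpoint genes ranked far lower. The worm ATR gene atl-1 had the lowest best peak of all, with a pooled signal of 4.05 at rank 29307. This peak was shared with hcp-2, a centromere protein gene. The clamp gene hus-1 was at rank 13942, through an intergenic summit that also lay in the window of msh-2. The gene of the kinase stability factor CLK-2 had no pooled summit. Within the checkpoint clamp, then, mrt-2 stood at rank 360 and hus-1 at 13942.

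Of the end joining genes, polq-1, which encodes the polymerase theta of microhomology-mediated joining, had a pooled signal of 14.3 at rank 1869 (WBGene00020964; III:5802955-5803310). Replicate 1 gave 5.81 (rank 10737) and replicate 2 gave 5.80 (rank 2378). The summit was 27 bp inside the polq-1 5′ UTR and 127 bp upstream of him-10, an outer kinetochore gene on the other strand. The Ku genes cku-80 and cku-70, whose products hold the broken ends, ranked 8811 and 14447. In neither replicate did a peak overlap that of cku-70.

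The dissolution factor gene rmh-1, whose product works with the BLM helicase HIM-6, had a pooled signal of 18.8 at rank 1015 (WBGene00019712; I:5572390-5572745). Its signals were 8.23 in replicate 1 (rank 4555) and 9.57 in replicate 2 (rank 606). The summit, 646 bp upstream of rmh-1, lay in a coding exon of cey-3, a Y-box protein gene. The helicase gene him-6 itself ranked 11999.

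Of the structure-specific nuclease genes, xpf-1 had a pooled signal of 14.9 at rank 1703 (WBGene00008140; II:11695265-11695620), with 8.87 in replicate 1 (rank 3700) and 2.48 in replicate 2 (rank 13958). Its summit was 728 bp upstream of xpf-1 and 214 bp downstream of a start of tars-1, a threonyl-tRNA synthetase gene. The summit lay in an intron of both tars-1 and kel-1. The peak of mus-81 had a pooled signal of 14.02 at rank 1960 (WBGene00016602; I:4264995-4265350), with 10.9 in replicate 1 (rank 2008) and 2.84 in replicate 2 (rank 11341). It lay in a mus-81 coding exon, 64 bp inside the gene, and 5441 bp from the thresholded summit shared by cdc-6 and acin-1. In replicate 2 neither was among the 3000 highest. The nuclease gene slx-1 ranked 7337 in the pooled list but 2237 in replicate 1, and gen-1 had no pooled summit.

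In mismatch repair, msh-6, which pairs with MSH-2 to recognise mispaired bases, had a pooled signal of 14.5 at rank 1813 (WBGene00003422; I:3449423-3449778). Replicate 1 gave 11.7 (rank 1659) and replicate 2 gave 2.48 (rank 13932). The summit was in an intron of msh-6, 275 bp inside the gene. The overlapping replicate summits lay 49 and 203 bp farther in, past the end of the 300 bp window. Its partner msh-2 ranked 13942 through the peak shared with hus-1. The MutL genes pms-2 and mlh-1 ranked 15750 and 23427, and in neither replicate did a peak overlap that of mlh-1.

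No end resection gene was among the 3000 highest. The Mre11 complex genes rad-50 and mre-11 ranked 4315 and 5617 and com-1, the worm CtIP, ranked 9335, while the exonuclease gene exo-1 had no pooled summit. The crosslink repair gene fcd-2, the worm FANCD2, ranked 5000. It had 4 pooled summits, of signals 9.84, 9.56, 9.04 and 4.09, spread over its several starts. Across the 18 repair genes whose best peak was below the 3000 highest, the pooled signal ran from 4.05 to 10.4. The −log10 q deposited for those peaks ran from 0.113 to 1.68, against 2.76 to 3.04 for the 11 above. Over all 29 genes with a pooled summit the median signal was 9.19 and the median rank 6030, against 7.38 and 10362 over the 8580 protein-coding genes with one. In the replicate 1 list alone the median rank was 10215 against 10394, which nearly removed the gap, and in the replicate 2 list alone it was 4314 against 6816.

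**Figure D2:**
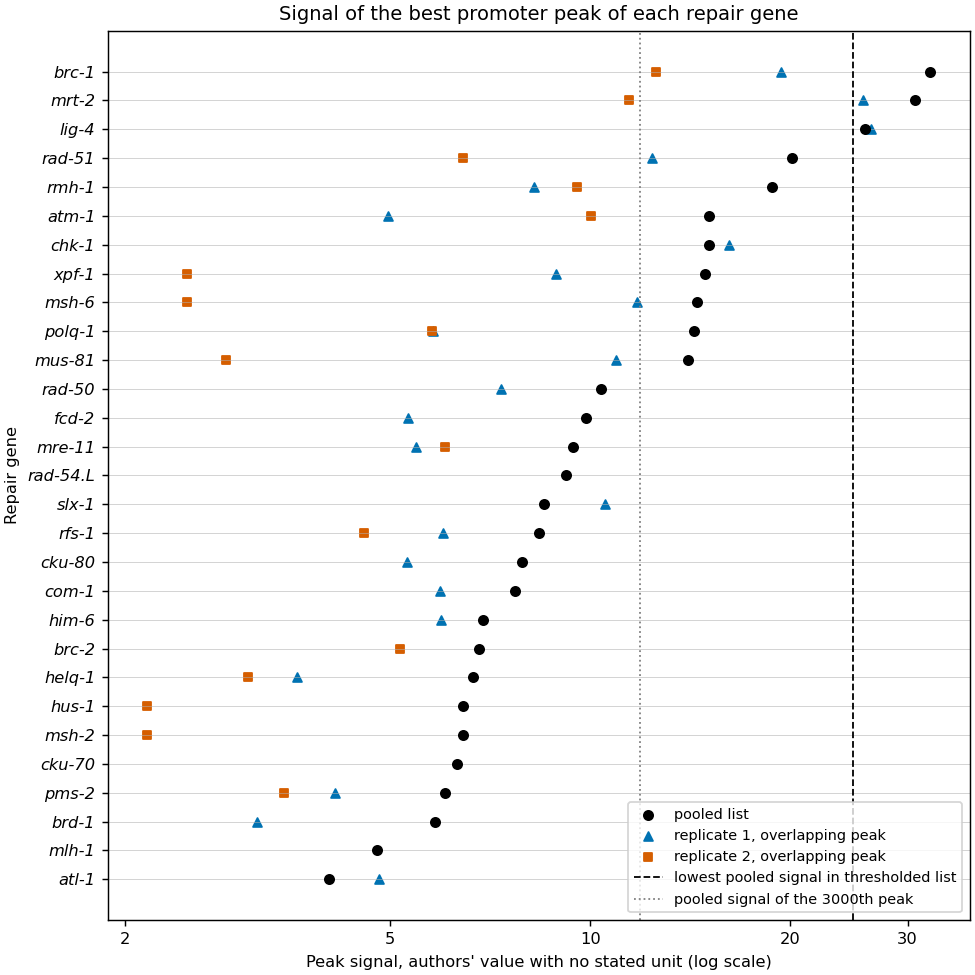
Signal of the best pooled promoter peak of each of 29 repair genes (black) and of the highest overlapping peak in replicate 1 (blue triangles) and replicate 2 (orange squares), on a log scale; a missing symbol means no overlapping peak. Black points of brc-1, mrt-2 and lig-4 lie right of the dashed line at 24.8, and 8 more lie between it and the dotted line at 11.9, the pooled signal of the 3000th peak.

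The replicates shared some of their repair genes, in about the proportion seen over all genes. Counted on each replicate's own 3000 highest peaks, 7 of 32 had a promoter summit in replicate 1 (21.9%, 95% exact interval 9.28 to 40.0), against 9.01% of all protein-coding genes. In replicate 2 it was also 7 of 32, against 8.22%. In both sets were brc-1, mrt-2 and rad-51 (9.38%), against 4.03% of all genes. These 3 were 42.9% of each replicate's 7, while over all genes those in both were 44.8% of the replicate 1 set and 49.1% of the replicate 2 set. The others in replicate 1 were chk-1, lig-4, mus-81 and slx-1, and those in replicate 2 were atm-1, mre-11, polq-1 and rmh-1. Where the pooled list gave 11, each replicate's own list thus gave 7. Of these, slx-1 (replicate 1) and mre-11 (replicate 2) were not among the 11. In whole lists, 26 of 32 had a promoter summit in replicate 1 (81.3%, against 42.1% of all genes) and 17 of 32 in replicate 2 (53.1%, against 29.9%). The replicate 2 list is also the shorter one, with 18226 peaks against 30000.

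The best pooled peaks were also compared with the whole replicate lists, counting an overlap of at least 1 bp. Of the 29 best peaks, counted by gene, 23 overlapped a peak in replicate 1 (79.3%, against 74.5% of genes with a pooled summit). In replicate 2 it was 16 (55.2%, against 43.8%) and in both it was 13 (44.8%, against 31%). In neither replicate was there a peak over those of cku-70, mlh-1 and rad-54.L. Of the 11 genes among the 3000 highest, all 11 overlapped a replicate 1 peak and 9 a replicate 2 peak (81.8%, against 80.1% of all genes at that depth of the list). The same 9 overlapped in both (against 76.8%), and the exceptions were lig-4 and chk-1. The overlapping peak was among the 3000 highest of both replicates for 3 of the 11, of replicate 1 only for lig-4, chk-1, msh-6 and mus-81, of replicate 2 only for rmh-1, atm-1 and polq-1, and of neither for xpf-1. By overlap of at least 1 bp with the whole lists, which hold background, the agreement of the 11 was close to that of other genes at this depth. For the rank of the overlapping peak no share over all genes was taken, so closeness on that stricter measure is not shown.

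**Figure D3:**
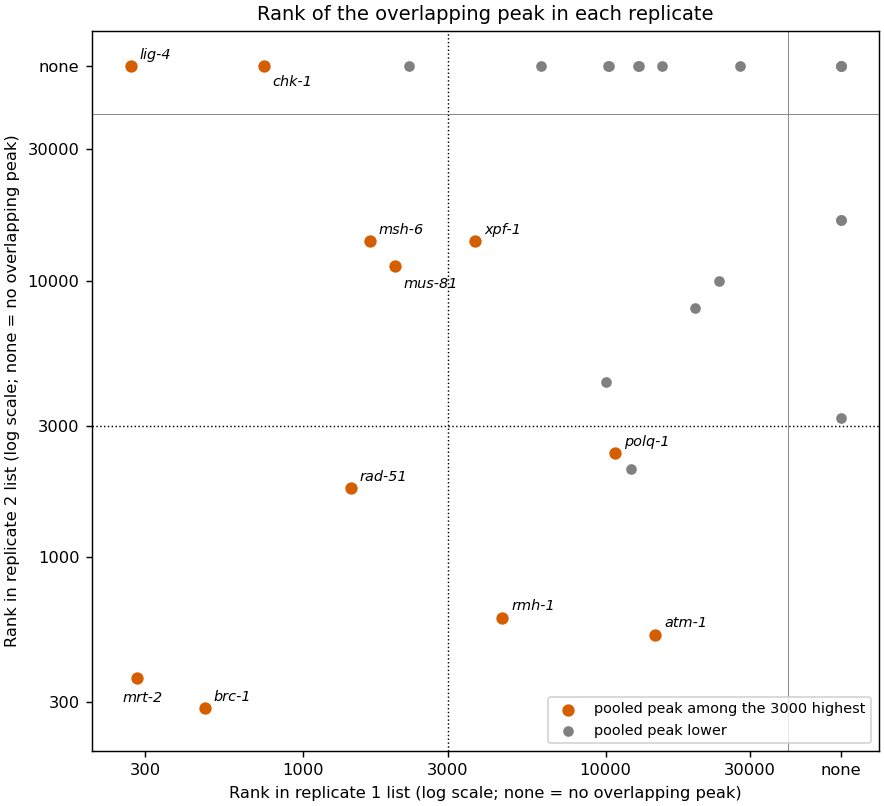
Rank of the highest peak overlapping each gene's best pooled peak, in replicate 1 (horizontal) and replicate 2 (vertical), both on log scales, with genes lacking an overlapping peak placed at "none"; dotted lines mark rank 3000. The lower left corner holds brc-1, mrt-2 and rad-51, and lig-4 and chk-1 sit at "none" for replicate 2.

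Many of the repair peaks could not be given to the repair gene alone. Of the 29 genes with a pooled summit, 14 shared the best one with another protein-coding gene (48.3%, against 27.8% of all genes with a summit). For 13 of the 14 the neighbours were all on the other strand, and for 6 a neighbour's start was nearer to the summit than that of the repair gene. For msh-2 and hus-1 the neighbour was itself a repair gene, since the same summit lay 192 bp upstream of msh-2 and 359 bp upstream of hus-1. The 29 genes therefore had 28 distinct peaks. Other lower-ranked genes that shared theirs were mre-11 (wdr-5.3), rad-54.L (snx-3), cku-80 (R07E5.7), brc-2 (T07E3.3), pms-2 (nhr-101) and brd-1 (K04C2.2). The best peak of rad-50 was shared with slfl-5 and T04H1.13. Its summit lay in the slfl-5 5′ UTR, 4 bp from a slfl-5 start and 606 bp upstream of rad-50. Among the 11 of the 3000 highest, lig-4, atm-1, xpf-1 and polq-1 shared theirs (36.4%), against 46.9% of all genes with a summit at that depth, so there the share was the lower one. Counting only summits in the window of a single protein-coding gene, a setting chosen after the data were seen, 7 of 32 (21.9%) were left, against 5.22% of all genes. These were brc-1, chk-1, mrt-2, msh-6, mus-81, rad-51 and rmh-1. Lying in a single window does not assign a peak to that gene. The rmh-1 summit was in a coding exon of cey-3, and neither replicate had a summit in the msh-6 window.

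The summits were upstream of the nearest start for 20 genes and downstream for 9. The median distance was 215 bp, against 280 bp over all genes with a pooled summit. Of the 29, 14 summits were intergenic, 6 were in a coding exon, 5 in an intron and 4 in a 5′ UTR. The farthest from a start was helq-1 at 949 bp and the nearest atl-1 at 11 bp. With a window of 500 bp upstream to 100 bp downstream, 7 of 32 kept a summit among the 3000 highest, against 7.26% of all genes. The median summed window length was 1301 bp, that of a single start, both for the 32 repair genes and for all genes. Among the 11 it was 1531 bp, against 1301 bp over all genes with a summit among the 3000 highest. The part that window length played in the result was not tested.

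**Figure D4:**
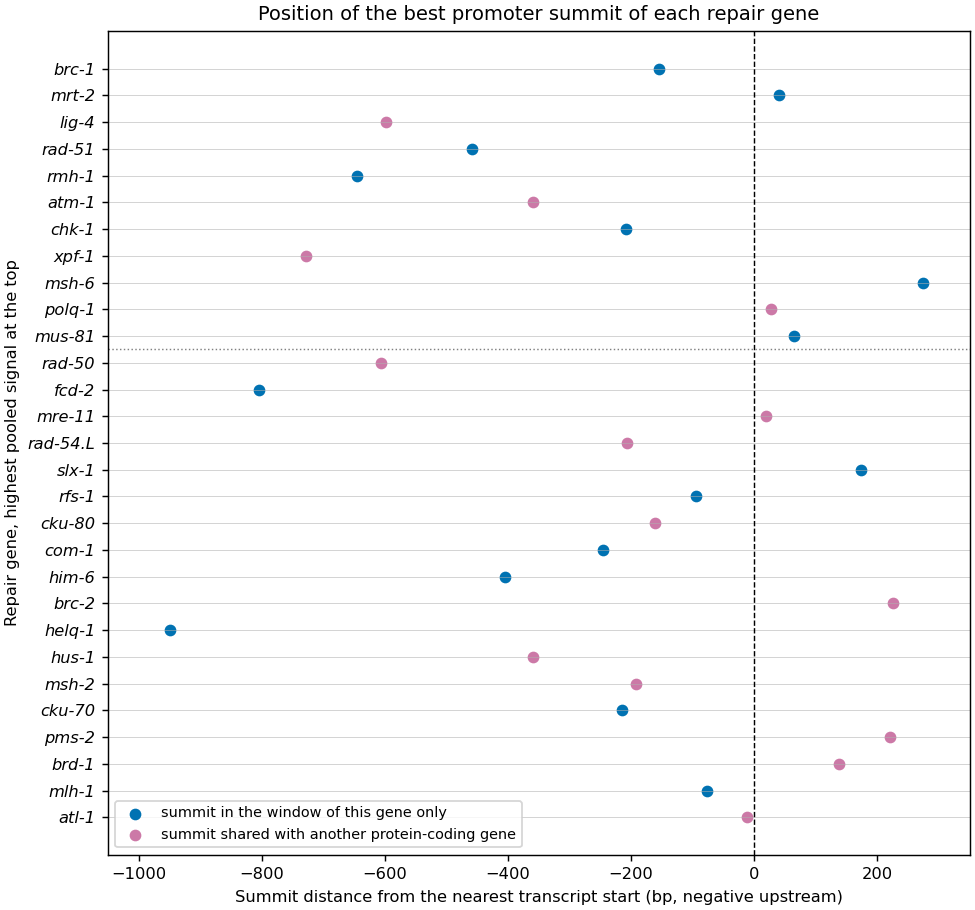
Distance of the best pooled summit from the nearest transcript start in bp (horizontal, negative upstream) for 29 repair genes, ordered by pooled signal with the highest at the top; the dotted line separates the 11 among the 3000 highest. Pink points, 14 in all, are summits that also lie in the window of another protein-coding gene.

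The repair genes were unevenly spread over the chromosomes. Chromosome III held 15 of the 32, chromosome I held 8, V held 5, IV held 3 and II held 1, and there were none on X. The share of all protein-coding genes with a summit among the 3000 highest also varied, from 15.9% on III and 14.3% on I to 6.45% on V and 3.19% on X. Over autosomal genes it was 10.5%. Weighted by the chromosomes of the 32 it was 13.2%, and the share of the repair genes was 34.4%. By chromosome, 4 of 15 repair genes on III and 4 of 8 on I were among the 3000 highest, as were the only one on II, 1 of 3 on IV and 1 of 5 on V. The part that chromosome played in the result was not tested.

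E2F-DP recognises strings spelled here as TTTCCCGC, TTTCGCGC, TTTGCCGC and TTTGGCGC. They were sought on both strands in 2 places, at the summits and at the gene starts. The places differ in window length and in the genes counted, so their shares cannot be set against each other. Within 100 bp of the best summit, 1 of 29 repair genes had such a string (3.45%), namely polq-1, against 5.66% of all genes with a pooled summit. For the 11 among the 3000 highest this was 1 of 11 (9.09%), against 11.4% of all genes at that depth. Within 200 bp it was 4 of 29 (13.8%) against 8.75% and 2 of 11 (18.2%) against 14.9%. These counts are too small to give a direction at either distance. The genes added were atl-1, com-1 and lig-4. In lig-4 the string TTTCGCGC lay 174 bp from the thresholded summit. In promoters of 601 bp, from 500 bp upstream to 100 bp downstream of the outermost start, 9 of 32 repair genes had one (28.1%), against 9.11% of all protein-coding genes. The median GC content of these promoters was 35.03% for the repair genes and 34.6% for all genes. The 9 were atl-1, brc-1, com-1, fcd-2, him-6, mre-11, mrt-2, polq-1 and slx-1, which include 3 of the 11 with a peak among the 3000 highest.

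The promoter matches are printed below for 8 of the 9 genes, to show the string in genes of high and of low rank. Each is 30 bases of WBcel235 on the strand of the gene, with the E2F string in capitals. Where the string is on the opposite strand (him-6, polq-1 and mrt-2), its reverse complement is what the capitals show.
brc-1 (III:3863320-3863349, 366 bp upstream of the outermost start): agcagcatcgtTTTCGCGCactctttcttc
mrt-2 (III:11746396-11746425, 356 bp upstream): ttgtcaatggaGCGCGAAAaattcaatgca
polq-1 (III:5803152-5803181, 6 bp upstream): cgccgaagagcGCGCCAAAacatgtgacat
com-1 (III:10895983-10896012, 366 bp upstream): ttaatcttaaaTTTCCCGCtgcaaacgcgc
mre-11 (V:10736973-10737002): aacaaaaacgtTTTGGCGCcgagtttatat
atl-1 (V:9645694-9645723, 113 bp upstream): atcgtttaaaaTTTCGCGCcgtttcaatag
fcd-2 (IV:15025576-15025605, 120 bp upstream): aaatatcgaaaTTTCGCGCcatggagcatg
him-6 (IV:12490687-12490716, 90 bp upstream): atcggcaaaagGCGGCAAAcattttatttt
The string TTTCGCGC occurred in brc-1, mrt-2, atl-1 and fcd-2, whose pooled ranks were 328, 360, 29307 and 5000. In brc-1 the string lay 211 bp from the summit and in mrt-2 396 bp, so the strongest repair peaks were not centred on it. In polq-1 the distance was 33 bp and in atl-1 102 bp. The string of fcd-2 lay 684 bp from the best summit but 18 bp from another fcd-2 summit, of rank 28980, and that of mre-11 lay 335 bp from the best summit and 92 bp from its second, of rank 5914. A match is a description of the letters and not of a site in use.

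**Figure D5:**
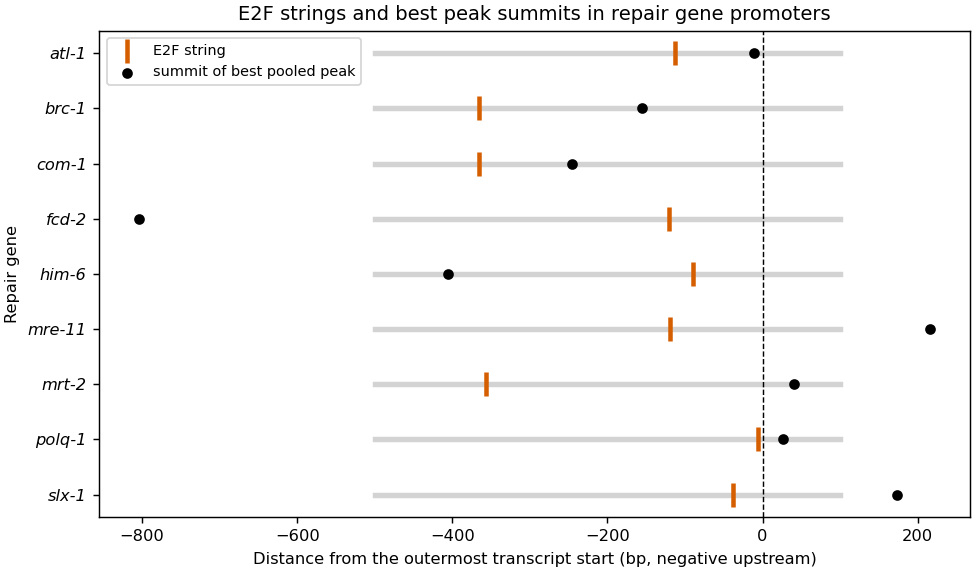
Position of the E2F string (orange bars) and of the best pooled summit (black points) relative to the outermost transcript start, in bp, in the 9 repair genes with a string in the 601 bp promoter scanned (grey). Only in polq-1 do string and summit lie within 100 bp of each other, at 33 bp.

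For comparison, 45 other repair and damage response genes were taken from a list also written with earlier results of these data known. Of these, 2 had a thresholded summit (4.44%, against 2.77% of all genes), 5 a summit among the 1000 highest (11.1%, against 4.51%) and 12 among the 3000 highest (26.7%, interval 14.6 to 41.9, against 9.56%). The strongest was hsr-9, the worm relative of 53BP1, with a pooled signal of 54.02 at rank 121 (rank 226 in replicate 1 and rank 55 in replicate 2). Its summit, 140 bp upstream, was shared with the ribosomal protein gene rps-19. Next came hpr-17, which loads the checkpoint clamp that includes MRT-2 and HUS-1, with a pooled signal of 35.5 at rank 268. It ranked 140 in replicate 1 and 5752 in replicate 2 and shared its summit with F32A11.1. It had an E2F string within 100 bp of the summit. The alkyltransferase gene agt-1 (pooled signal 23.997, rank 606), the translesion polymerase gene polh-1 (22.5, rank 688, shared with rps-22) and the crosslink nuclease gene fan-1 (21.4, rank 755) were below the authors' limit. The overlapping peak of agt-1 ranked 2583 in replicate 1 and 429 in replicate 2, and that of polh-1 ranked 462 and 14092. The fan-1 peak ranked 460 in replicate 1 and had no overlapping peak in replicate 2. The p53 relative cep-1 was among the 9 of these 45 genes with no pooled promoter summit. The shares of the 32 and of the 45 genes lay within each other's intervals for the thresholded, 1000 highest and 3000 highest peaks. For a summit of any rank, the 90.6% of the 32 genes lay just above the interval of the 45 (80%, interval 65.4 to 90.42).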

How the data were processed

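LIN-35 ChIP-seq peak lists on build ce11 (the same assembly as WBcel235) were used for replicates 1 and 2 of 1 group. Per the deposited text notes, alignments and a control library gave replicate and pooled lists, and irreproducible discovery rate (IDR) analysis of these gave the thresholded list. Which aligner, peak caller, cutoff and signal scaling were used is not given in the sources used here. Each peak's signal and the −log10 of its q-value are the authors' deposited values. The ce10 lists and the control were not used here. Summits (deposited offsets from the peak start) were set against the Ensembl release 115 annotation, all peak ends lay within the chromosomes, and sequences came from the RefSeq assembly WBcel235. A summit could count for several genes, and ranks run from the highest signal. Shares have 95% exact (Clopper-Pearson) intervals. The members and lists were chosen with earlier results of these data known, and no set test was run. Every member was to be accounted for, and those among the 3000 highest pooled peaks described with both replicates, position and neighbours. Genes of the list of 45 were named when among the 1000 highest; cep-1 and the genes sharing peaks with low-ranked members were named after their values were seen. Assignment was checked on simulated data. Python 3.11.15, numpy 2.4.6, pandas 2.3.3, scipy 1.17.1 and matplotlib 3.10.9 were used.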

Additional observations from a re-analysis of the deposited data

How the results depend on the processing

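The count of 3 repair genes with a thresholded summit was 2 to 3 under other windows, with the nearest start or with single-gene summits. Over all genes these settings gave 1.12% to 3.44%. In the 550 highest peaks of replicate 1 or replicate 2 alone the count was again 3 (against 2.71% and 2.28%). These were not the same genes, since replicate 2 had atm-1 in place of lig-4. Among the 275 highest thresholded peaks it was 0 (against 1.5% of all genes). The count of 4 among the 1000 highest was 3 or 4 under these windows and settings (against 1.99% to 5.75% of all genes). In replicate 1 or replicate 2 alone it was 4 (against 4.29% and 3.78%). There chk-1 (replicate 1) or atm-1 and rmh-1 (replicate 2) entered, and rad-51 was in neither. A window of 500 bp upstream to 100 bp downstream gave 7 instead of 11 among the 3000 highest (against 7.26% of all genes). Single-gene summits also gave 7 (against 5.22%), as did the replicate 1 list alone (against 9.01%) and the replicate 2 list alone (against 8.22%). The count was 8 with the nearest start (against 7.41%) and 12 with a window of 2000 to 500 bp (against 12.6%). The 29 genes with any pooled summit became 18 with single-gene summits (against 32.5%). The replicate 1 list alone gave 26 (against 42.1%) and the replicate 2 list alone gave 17 (against 29.9%). The median pooled rank of 6030 ranged from 4314 to 10215 over the replicates' own lists, a setting added after seeing the data, where all genes had medians of 6816 and 10394. Within 200 bp of the summit the E2F string was in 4 genes instead of 1 (13.8% against 8.75% of all genes with a summit), and within 50 bp the CHR-like string in 8 instead of 21 (27.6% against 35.2%). The cause of these shifts was not tested. Depth is unknown, so a missing peak in replicate 2 does not show a lack of binding. No paired analysis was possible because the series has a single group.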
